A study of Mus musculus with 18 samples.

Results

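The Rab GTPase genes were examined as targets of miRNAs in cultured mouse keratinocytes, the main cells of the epidermis. They were taken as the protein-coding genes of the mouse genome (mm10; RefSeq GRCm38.p6) whose symbol is Rab followed by a number and at most 1 letter and 1 further digit, 59 of 21887 genes. A chimeric read was counted for a Rab gene when the middle of its target lay in that gene and in no other protein-coding gene. By this rule 2961 reads lay on 52 of the 59 Rab genes, of 889806 reads on single protein-coding genes and 1153545 reads in all. A further 2 reads lay in a Rab gene and in another gene and were not counted.

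The reads come from CLEAR-CLIP, in which RNA is crosslinked to Argonaute 2 with UV light, the protein is precipitated, and the miRNA is ligated to the target RNA held beside it, so that 1 sequencing read names a miRNA and its target. The series has 18 libraries in 2 sets. Set 1 holds 6 control libraries of K14-Cre only cells and 3 miR-200 double knockout (DKO) libraries. Set 2 holds 3 control libraries of miR-200 inducible cells left uninduced, 3 libraries of miR-200 DKO cells, and 3 libraries of inducible cells given doxycycline at 3 ug/ml for 24 hours before the protocol. All cells grew in low calcium medium, and the UV dose was 300 mJ/cm2 (254 nm) throughout. K14 is the keratin 14 promoter, which is active in basal keratinocytes. The labels name neither the knocked out alleles, nor the driver of the inducible construct, nor whether libraries came from separate animals or clones. Each group's libraries were deposited as 1 pool with no library names. A group is therefore 1 pooled sample here: no test between groups was possible, and the 95% intervals (exact) cover counting error only, not the spread between libraries.

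Rab proteins are small GTPases of the Ras superfamily that mark the membranes of the cell. In the GTP-bound form a Rab sits in a membrane through its prenyl tail and recruits effectors, such as tethers and motor proteins, that move, dock or fuse vesicles; exchange factors load it with GTP, GTPase-activating proteins switch it off, and a dissociation inhibitor carries the GDP-bound form through the cytosol. In keratinocytes Rab proteins carry the traffic of adhesion receptors and growth factor receptors, the secretion of lysosome-related granules, and the handling of melanosomes taken up from melanocytes. The miR-200 family holds 5 miRNAs in 2 seed groups and is abundant in epithelia.

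The mature sequences of the miRNAs most often ligated to Rab RNA, taken from RefSeq (GRCm38.p6), show which seed each of them brings to these targets. Capitals mark the seed, bases 2 to 8 from the 5′ end. A mature sequence was found for 14 of the 15 miRNAs with the most Rab reads, the exception being miR-3470a. One of these 14, miR-200c-3p, is shown with its family in the second list. The first pair share a seed, and miR-27b-3p is shown beside miR-27a-3p for that reason.
miR-27a-3p: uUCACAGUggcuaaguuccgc
miR-27b-3p: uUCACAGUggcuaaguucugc
miR-31-5p: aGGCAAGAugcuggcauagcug
miR-21a-5p: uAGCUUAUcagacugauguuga
miR-125b-5p: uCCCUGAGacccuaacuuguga
miR-23a-3p: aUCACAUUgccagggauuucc
miR-205-5p: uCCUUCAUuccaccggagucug
miR-24-3p: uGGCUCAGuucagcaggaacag
miR-16-5p: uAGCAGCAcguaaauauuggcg
miR-22-3p: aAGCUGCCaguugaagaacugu
miR-183-5p: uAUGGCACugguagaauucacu
miR-3470b: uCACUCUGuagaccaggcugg
miR-706: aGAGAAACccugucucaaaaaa
miR-3473d: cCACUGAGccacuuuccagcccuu

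The miR-200 family members, the miRNAs whose presence the study varied, fall into a group with one seed and a group with another.
miR-200b-3p: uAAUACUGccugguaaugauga
miR-200c-3p: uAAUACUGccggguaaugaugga
miR-429-3p: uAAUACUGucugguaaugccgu
miR-200a-3p: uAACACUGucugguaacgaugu
miR-141-3p: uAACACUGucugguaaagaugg

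The pools differed in depth. They held 161692 (set 1 control), 48662 (set 1 DKO), 314071 (set 2 uninduced), 210003 (set 2 DKO) and 419117 (set 2 induced) chimeric reads, of which 74.8% to 78.4% lay on single protein-coding genes. The set 1 DKO pool is the shallowest and carried only 136 Rab reads. Between 2.63% and 9.56% of a pool's Rab reads had the same position, strand, miRNA and barcode as a read of another pool of the same set. All 10 basal keratinocyte markers, among them Krt5, Krt14 and Trp63, had reads, though Krt15 had only 1. Their summed share had a ratio of 1.36 (1.14 to 1.62) for set 1 DKO, 1.21 (1.12 to 1.31) for set 2 DKO and 0.813 (0.754 to 0.875) for induction, and the part of this in the Rab values was not tested. Single markers differed: for set 2 DKO, Krt14 gave 2.04 (1.64 to 2.55) and Trp63 0.945 (0.763 to 1.17). Of the marker lists for other cell types, fibroblast genes had 23 reads in all on 2 of 7 genes with Col1a1, Col1a2, Col3a1, Lum and Dcn at 0, immune genes had 2 reads, and endothelial genes had 32. The number of chimeric reads on a gene depends on its RNA level as well as on binding, and the number cannot tell them apart.

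A group of 7 miRNAs set the sets apart. These were miR-1195, miR-3470a, miR-706, miR-3473b, miR-7667-5p, miR-709 and miR-3470b, listed because earlier results of these data showed them to be more frequent in set 1. They made up 44.0% of Rab reads in set 1 control (218 reads) and 24.3% in set 1 DKO (33 reads), but 2.84%, 4.08% and 3.93% in the set 2 uninduced, DKO and induced pools (22, 22 and 40 reads). Among reads on all protein-coding genes their part was 30.4% and 20.0% for the set 1 pools and 2.42% to 2.89% for those of set 2. Groups are compared below within a set, and values of the other set are given beside them as a description. The part of the 7 miRNAs also differed between the 2 pools of set 1, so comparing within set 1 does not remove it. The set 1 ratios of lists, partner genes and single miRNAs were not recomputed without the 7.

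The Rab family as a whole took between 0.313% and 0.396% of the reads on protein-coding genes in every pool. Rab genes took 495 reads in set 1 control, or 0.396% of reads on protein-coding genes (0.362% to 0.433%), and 136 reads in set 1 DKO, or 0.374% (0.313% to 0.442%). In set 2 they took 774 reads in uninduced cells (0.324%, 0.301% to 0.347%), 539 in DKO cells (0.328%, 0.301% to 0.356%) and 1017 in induced cells (0.313%, 0.294% to 0.333%). The ratio of shares was 0.942 (0.774 to 1.14) for DKO over control in set 1, 1.01 (0.905 to 1.13) for DKO over uninduced in set 2, and 0.967 (0.880 to 1.06) for induced over uninduced. All 3 intervals include 1. Both comparisons of set 2 use the same uninduced pool. Between the controls of the 2 sets the ratio was 1.22 (1.09 to 1.37), and 0.989 (0.859 to 1.14) without the 7 miRNAs.

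Reads were spread unevenly over the Rab genes. Rab10, Rab31, Rab7 and Rab1a together carried 966 reads, 32.6% of those on the family, and the 15 genes ranked highest by their mean share carried 2169, or 73.3%. Altogether 29 genes had at least 20 reads, 23 had 1 to 19 (165 reads together), and 25 had a read in every pool. No read lay on Rab17, Rab33a, Rab36, Rab39b, Rab3b, Rab7b or Rab9b. A longer gene offers more sequence, and the order changed when reads were divided by the length of the annotated gene. Among those 15 genes, Rab14 had 82.2 reads over 10 kb of gene, Rab1a 68.8, Rab10 52.9, Rab21 52.3 and Rab7 47.0, against 20.1 for Rab31 and 12.5 for Rab28.

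**Figure D1:**
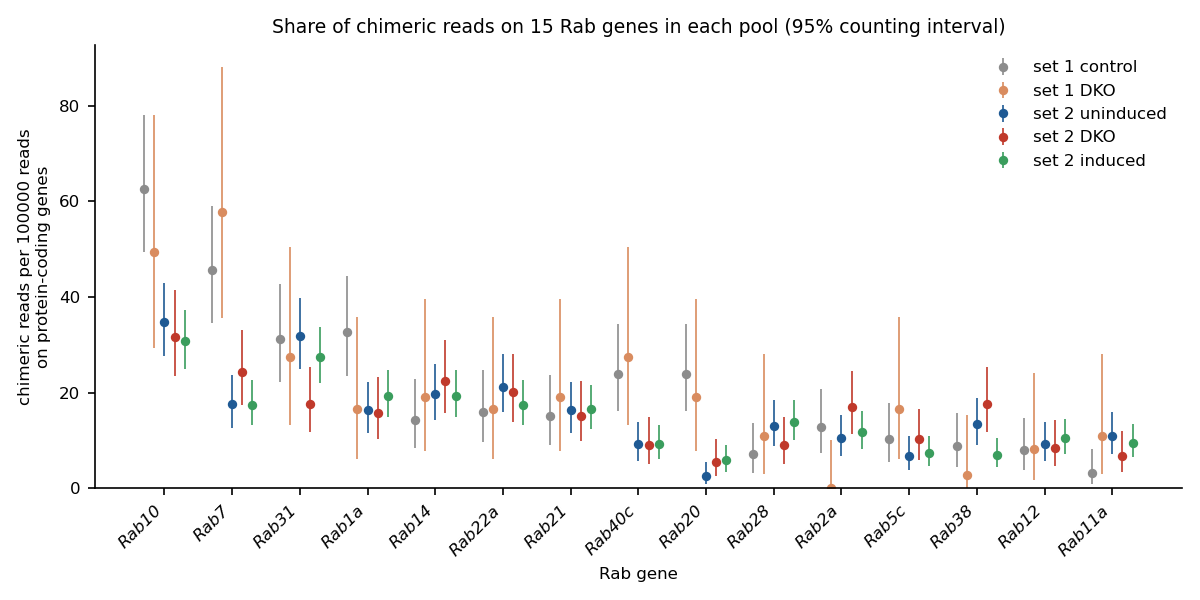
Chimeric reads per 100000 reads on protein-coding genes (vertical axis) for the 15 Rab genes with the highest mean share, with 1 point per pool and bars for the 95% counting interval. Rab10 lies between 30.8 and 62.5 and Rab7 between 17.5 and 57.7, and the set 1 DKO pool, the shallowest, has wide bars.

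Among the Rab proteins of the endoplasmic reticulum and Golgi, Rab1a, which acts in transport from the endoplasmic reticulum to the Golgi, had the most reads: 41 in set 1 control, 6 in set 1 DKO, 39 in set 2 uninduced, 26 in set 2 DKO and 63 in set 2 induced. Rab2a, which works on the same route and on Golgi structure, had 16, 0, 25, 28 and 38 reads in the same order. In set 1 the pools compared held 16 reads of Rab2a, below the minimum of 20 set for a ratio. Rab1a had a ratio of 0.502 (0.174 to 1.19) there, just short of 2-fold lower, and 0.486 (0.169 to 1.15) when all reads of a pool were the denominator. Rab18, which acts at the endoplasmic reticulum and lipid droplets, had 4, 1, 30, 13 and 43 reads, and Rab6a, which acts in retrograde transport at the Golgi, had 11, 1, 20, 14 and 41. None of the 7 members with at least 20 reads reached a 2-fold ratio in either set 2 comparison. For set 2 DKO over uninduced their ratios included 1.63 (0.915 to 2.91) for Rab2a and 0.630 (0.301 to 1.24) for Rab18, and on induction 1.51 (0.864 to 2.72) for Rab6a, with intervals that include 1. For the list as a whole (10 of 11 genes with a read, 667 reads) the ratio was 0.630 (0.358 to 1.05) in set 1, 1.06 (0.839 to 1.35) for set 2 DKO and 1.08 (0.888 to 1.32) for induction.

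The Rab proteins of early endosomes had 686 reads on 6 of 6 genes. Rab31, a relative of Rab22a that acts between the trans-Golgi and endosomes, had 39 and 10 reads in the set 1 control and DKO pools and 76, 29 and 89 in the set 2 uninduced, DKO and induced pools. Its share in set 2 was 31.8 reads per 100000 in uninduced cells, 17.6 in DKO cells and 27.4 in induced cells. DKO was therefore the low pool of set 2 for Rab31, with a ratio of 0.554 (0.348 to 0.861), which did not pass the 2-fold rule. In set 1 the ratio was 0.879 (0.391 to 1.79). Rab22a, which acts in endosomal sorting and recycling, had 20, 6, 51, 33 and 57 reads. Rab21, which binds integrins and moves them through endosomes, had 19, 7, 39, 25 and 54. Rab5c, one of the Rab5 forms that drive early endosome fusion, had 13, 6, 16, 17 and 24. No member reached 2-fold in any comparison among those with at least 20 reads (3 in set 1, 4 in each of the set 2 comparisons).

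Rab7, the Rab of late endosomes and of their fusion with lysosomes, had 57 and 21 reads in set 1 and 42, 40 and 57 in set 2. Per 100000 reads this was 45.7 and 57.7 for set 1, and 17.6, 24.3 and 17.5 for the set 2 pools. The ratio was 1.26 (0.727 to 2.12) in set 1, 1.38 (0.875 to 2.19) for set 2 DKO and 0.999 (0.659 to 1.52) for induction. Without the 7 miRNAs the set 1 ratio was 2.06 (1.07 to 3.91), on 18 and 26 reads. Rab20, linked to endosome and phagosome maturation, had 30 and 7 reads in set 1 and only 6, 9 and 19 in set 2. Induced over uninduced gave 2.33 (0.895 to 7.13), on 25 reads and with an interval that includes 1. Among the Rab genes with at least 20 reads in this comparison it was the single one past 2-fold upward. With each position, strand and miRNA counted once the ratio was 1.85 (0.677 to 5.81) and the call was lost. Without its deepest site of 11 reads, 5 uninduced and 14 induced reads remained, at a ratio of 2.06 (0.701 to 7.31). That is below the minimum of 20 reads, so the call was lost there too. For the late endosome and lysosome list as a whole (332 reads, 5 of 8 genes with a read) the ratio was 1.66 (1.14 to 2.43) for set 2 DKO, 1.20 (0.851 to 1.72) for induction and 1.00 (0.632 to 1.54) for set 1. The difference between the sets was not tested, and the 2 DKO intervals overlap. For set 2 DKO the intervals of all other Rab lists include 1. On induction only that of the melanosome list left out 1, at 0.505 (0.287 to 0.873).

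Of the recycling Rab proteins (7 of 7 genes, 340 reads), Rab14, which acts between the Golgi and endosomes, had 18, 7, 47, 37 and 63 reads over the 5 pools. Rab11a, the main Rab of the recycling endosome, had 4, 4, 26, 11 and 31. The list's ratio stayed between 0.925 and 0.989 in the 3 comparisons, with intervals that include 1. Rab25, the epithelial relative of Rab11a, had 20 reads in all.

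Secretion and exocytosis held the most read gene, Rab10, which acts in traffic to the plasma membrane. It lies at chr12:3247428-3309969 on the minus strand and had 78 and 18 reads in set 1 and 83, 52 and 100 in set 2. Its ratio was 0.791 (0.446 to 1.33) in set 1, 0.910 (0.631 to 1.30) for set 2 DKO and 0.886 (0.656 to 1.20) for induction. Rab8b, which acts in traffic to the plasma membrane and at cell junctions, had 8 and 1 reads in set 1. In set 2 it had 37 reads in uninduced cells (15.5 per 100000), 5 in DKO cells (3.04) and 34 in induced cells (10.5). The DKO pool thus stood below both others of set 2, with a ratio of 0.196 (0.0602 to 0.501) to uninduced cells. Among the Rab genes with at least 20 reads in that comparison, Rab8b was the single one past 2-fold downward. Fibroblast markers, nearly all Pdgfra, had 10, 0 and 12 reads in the same pools with the 5 named above at 0; their part in the Rab8b value was not tested. Without its deepest site, described below, 25, 5 and 24 reads remained in the set 2 pools and the ratio was 0.291 (0.0869 to 0.773).

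The melanosome list was carried by Rab38, which acts in the delivery of melanosome enzymes: 11 and 1 reads in set 1, and 32, 29 and 23 in set 2. The induced pool was the low one of set 2, at 7.08 per 100000 against 13.4 in uninduced and 17.6 in DKO cells, a ratio of 0.529 (0.296 to 0.932) for induction. This stayed short of 2-fold. The summed share of the basal keratinocyte markers was 561 per 100000 in uninduced, 681 in DKO and 456 in induced cells; its part in the Rab38 value was not tested. Rab27b, a Rab of granule secretion and melanosome transport named after its values were seen, had 3 and 4 reads in set 1 and 4, 13 and 12 in set 2. Set 2 DKO over uninduced gave 4.72 (1.46 to 19.9) for it, on 17 reads, below the minimum of 20. Of the 7 melanocyte markers listed, 3 had reads, 12 and 5 in set 1 and 9, 21 and 17 in set 2 (9.61, 13.7, 3.76, 12.8 and 5.23 per 100000), while Dct, Tyrp1, Mlana and Sox10 were at 0. Of these reads 54 lay on Mitf. Whether other cells had a part in the Rab27b and Rab38 values was not tested.

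In the list of cilium and other Rab genes (10 of 11 genes, 334 reads), Rab40c, a Rab that joins a ubiquitin ligase through its SOCS box, had 30 and 10 reads in set 1 and 22, 15 and 30 in set 2. Rab28, a Rab known from cilia and photoreceptors, had 9, 4, 31, 15 and 45 reads in the same order, and Rab12, which acts in the degradation of recycling receptors, had 10, 3, 22, 14 and 34. None of them reached a 2-fold ratio in a comparison in which it had at least 20 reads.

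Over the family, few Rab genes differed in share by 2-fold. A gene was counted as higher or lower when the 2 pools compared held at least 20 of its reads together and the ratio of shares was at least 2 or at most 0.5. In set 1, DKO over control, 0 of 9 Rab genes were higher, where 9.08% of all 2126 genes with enough reads were, and 0 were lower, where 16.6% of all were. In set 2, DKO over uninduced, 0 of 20 were higher against 8.97% of all 4372 genes, and 1 of 20, Rab8b, was lower against 11.7%. For induced over uninduced cells, 1 of 21, Rab20, was higher against 2.94% of all 5205 genes, and 0 were lower against 2.21%. The median log2 ratio of the Rab genes was 0.04 in set 1 (all genes -0.13), -0.07 for set 2 DKO (all genes -0.02) and 0.00 for induction (all genes 0.02). At 9 to 21 genes these counts are near the background, and nothing particular to the family is read from them.

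**Figure D2:**
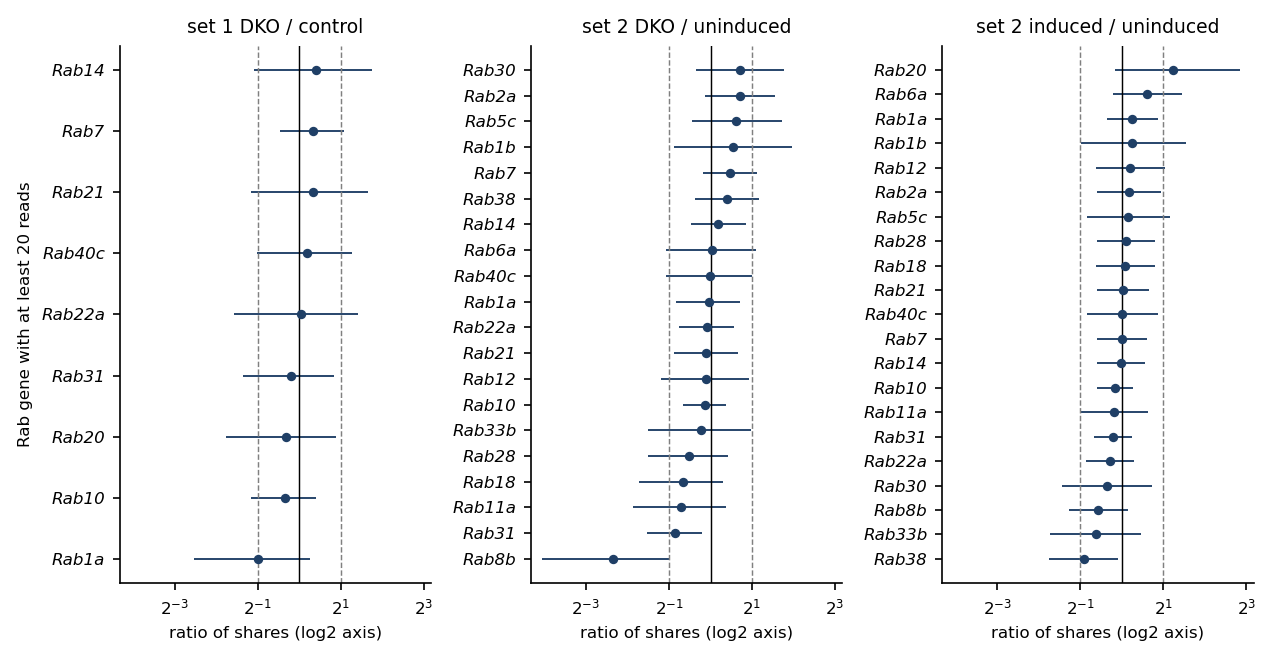
Ratio of shares on a log2 axis for each Rab gene with at least 20 reads in the comparison, 9, 20 and 21 genes from left to right, with 95% counting intervals, a solid line at 1 and dashed lines at 0.5 and 2. Rab8b lies below 0.5 in the middle panel and Rab20 above 2 in the right one.

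The miRNAs on Rab genes numbered 238, of which 41 had at least 20 Rab reads and 80 had 1. The 15 with the most reads held 1366, or 46.1%. miR-31-5p, an abundant keratinocyte miRNA, led with 235 reads on 38 Rab genes, 24 of them on Rab8b and 21 on Rab6a. It took 10 and 8 Rab reads in set 1 and 77, 36 and 104 in set 2. Its share of Rab reads was nonetheless lower than its share of reads on other protein-coding genes, with a ratio of 0.798 (0.699 to 0.907). miR-27a-3p followed with 180 reads on 33 genes and the opposite lean, at 1.21 (1.04 to 1.41). With miR-27b-3p, its seed group held 222 reads, 7.50% of Rab reads against 6.01% of reads on all protein-coding genes. The let-7 seed group of 9 miRNAs held 153 Rab reads, 5.17% against 6.00%. Next came miR-21a-5p with 139 reads, led by Rab31 (18) and Rab18 (16), miR-125b-5p with 96, miR-23a-3p with 86 and miR-205-5p with 83.

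For some miRNAs 1 gene held a large part of the Rab reads. Among the 15 named, miR-22-3p had 53 Rab reads, 4 and 0 in set 1 and 14, 8 and 27 in set 2, and 36 of the 53 lay on Rab1a. Its Rab share was 2.43 (1.82 to 3.18) times its share of other genes, and 0.828 (0.482 to 1.33) with Rab1a left out. miR-3473d, with 43 reads, had a ratio of 4.31 (3.11 to 5.81), and 3.28 (2.24 to 4.64) without Rab20, its leading gene with 11 reads. miR-3470a, with 74 reads of which 61 were from set 1 control, had 2.58 (2.02 to 3.24), and 1.81 (1.32 to 2.41) without Rab10, which held 28. In set 1 control it made up 12.3% of Rab reads against 4.41% of all, but 2.21% against 2.39% in set 1 DKO and 0.258% against 0.290% in set 2 uninduced cells. Among the 41 miRNAs with at least 20 Rab reads, the counting interval lay above 1 for 11 and below 1 for 4. The minimum was set on the Rab reads themselves, which favours ratios above 1, so nothing is read from this split. These ratios add reads over pools of unequal depth and miRNA content.

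**Figure D3:**
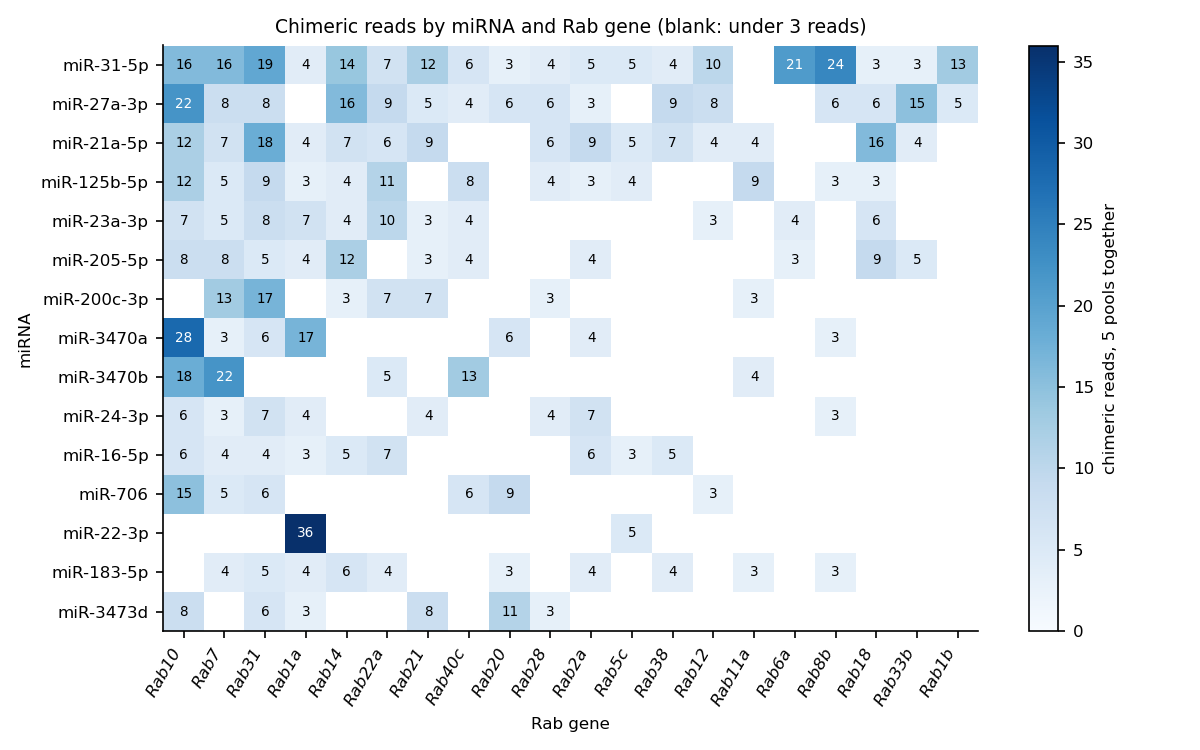
Chimeric reads of the 15 miRNAs with the most Rab reads (rows) on the 15 Rab genes with the highest mean share and 5 further ones, Rab6a, Rab8b, Rab18, Rab33b and Rab1b (columns), over the 5 pools together; cells with under 3 reads are blank. miR-31-5p and miR-27a-3p spread over many genes, while miR-22-3p has 36 of its 53 reads on Rab1a.

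The ratios of the leading miRNAs on Rab genes can be set beside their ratios on all protein-coding genes, which include the Rab genes. Set 2 DKO over uninduced gave 1.74 (1.14 to 2.69) for miR-27a-3p on Rab genes (51 and 42 reads) and 1.93 (1.88 to 1.98) on all protein-coding genes. miR-23a-3p gave 2.15 (1.22 to 3.88) on Rab genes (33 and 22 reads) and 1.78 (1.73 to 1.83) on all. In the other direction, miR-125b-5p gave 0.453 (0.216 to 0.886) on Rab genes (12 and 38 reads) and 0.516 (0.497 to 0.534) on all. The values for these 3 miRNAs on Rab genes lie near those on all genes, within their counting intervals. For miR-31-5p the ratios were 0.671 (0.439 to 1.01) and 0.696 (0.682 to 0.710). In set 1, DKO over control gave 2.91 (0.999 to 8.19) for miR-31-5p on Rab genes (8 and 10 reads) and 1.25 (1.18 to 1.31) on all. miR-23a-3p had 0 and 9 Rab reads there, where all genes gave 1.68 (1.58 to 1.78). miR-205-5p had fewer Rab reads in induced than in uninduced cells, 16 against 27, a ratio of 0.451 (0.227 to 0.868), where all protein-coding genes gave 0.865 (0.838 to 0.894). The 2 intervals of miR-205-5p overlap.

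miR-200 family reads on Rab genes followed the labels in set 2, while set 1 held too few to tell. There were 162 miR-200 reads on 26 Rab genes over the 5 pools: 4 in set 1 control, 0 in set 1 DKO, 54 in set 2 uninduced, 0 in set 2 DKO and 104 in set 2 induced. As a share of Rab reads this was 0.808% (0.221% to 2.06%) in set 1 control, 6.98% (5.28% to 9.01%) in uninduced and 10.2% (8.43% to 12.3%) in induced cells. The zeros allow a share of up to 2.21% in set 1 DKO and 0.557% in set 2 DKO by a limit of 3 reads, and up to 2.68% and 0.682% by the exact interval given for the other shares. In set 2 the ratio of DKO to uninduced was 0, with an exact interval up to 0.102; against the limit of 3 reads DKO was at least 12.5-fold lower, a tighter bound than that interval. Induced over uninduced gave 1.47 (1.05 to 2.08). In set 1 the control lies under the DKO limit and no fold can be given. Among reads on all protein-coding genes the family made up 3.61% and 0.165% for set 1 control and DKO, and 7.45%, 0.391% and 10.0% for the set 2 pools. Of its 60 and 643 reads in the DKO pools, 18 and 62 had no match in another pool of the same set. The set 1 control share was lower on Rab genes than on all genes, also without the 7 miRNAs, at 1.44% (0.395% to 3.66%) against 5.19% (5.04% to 5.34%).

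Both seed groups reached Rab RNA. miR-200b-3p, miR-200c-3p and miR-429-3p held 123 of the 162 reads, 75.9%, where they held 66.3% of miR-200 reads on all protein-coding genes. miR-200c-3p had 29 reads in uninduced and 45 in induced cells, miR-200b-3p 8 and 26, miR-141-3p 11 and 18, miR-429-3p 4 and 7, and miR-200a-3p 2 and 8. All 5 members had more reads in the induced pool, which is also the deeper one. By gene, Rab31 had 22 miR-200 reads (8 uninduced, 14 induced), Rab22a had 21 (2 in set 1 control, 7 and 12), Rab7 had 18 (3 and 15), Rab21 had 13 (5 and 8) and Rab28 had 10 (3 and 7). In uninduced and induced cells together these were 18.2% (11.1% to 27.2%) of Rab7 reads, 17.6% (10.9% to 26.1%) of Rab22a, 14.0% (7.66% to 22.7%) of Rab21, 13.3% (8.55% to 19.5%) of Rab31 and 13.2% (6.49% to 22.9%) of Rab28 reads. The intervals of these 5 genes overlap one another. Rab10 and Rab1a, both among the most read Rab genes, had 7 and 3 miR-200 reads, 3.83% (1.55% to 7.72%) and 2.94% (0.611% to 8.36%) of their reads in the same cells.

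Overlapping targets on 1 strand of a gene were joined into sites. The Rab genes held 1592 sites, 1122 of them with 1 read, and 91 sites on 22 genes with at least 5 reads held 902 reads, 30.5% of the total. Of these 91 sites 15 had reads in every pool and 26 carried 1 miRNA name. The same counts are not given for sites of other genes, so nothing particular to the Rab genes is read from them.

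The deepest site lay in Rab1a, at chr11:20224656-20224795 on the plus strand, 2061 bases from the annotated 3′ end of the gene. It held 46 reads, 7 and 0 in set 1 and 7, 8 and 24 in set 2. Of these 33 named miR-22-3p (71.7%, 56.5% to 84.0%), with miR-23a-3p next at 4. This site holds most of the 36 miR-22-3p reads on Rab1a. The Rab22a site at chr2:173701880-173702038, 148 bases from the gene's end, had 29 reads of 12 miRNAs, among them miR-200b-3p (7), miR-200c-3p (6) and miR-27a-3p (5). In Rab14, a site at chr2:35181746-35181906, 1541 bases from the end, had 25 reads in all 5 pools, 13 of miR-27a-3p and 6 of miR-27b-3p, which share the seed shown above. A neighbouring Rab14 site at chr2:35181539-35181619 had 19 reads, 7 of miR-467d-3p and 6 of miR-205-5p. A Rab18 site with 28 reads was led by miR-21a-5p (7), miR-19b-3p (6) and miR-19a-3p (5), and a Rab5c site at chr11:100715157-100715332 with 23 reads by miR-22-3p (5).

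The miR-31-5p sites in Rab8b and Rab6a differed between the pools of set 2. The Rab8b site, at chr9:66868441-66868539 on the minus strand and 24832 bases from the gene's end, had 12 reads in uninduced, 0 in DKO and 10 in induced cells, and none in set 1. It held 21 miR-31-5p reads of 22, which lay on 7 distinct combinations of position, strand and miRNA with 18 barcodes. The Rab6a site, at chr7:100639629-100639759 and 1509 bases from the end, had 11, 0 and 9 reads in the same pools and none in set 1, with 12 of its 20 reads naming miR-31-5p. Neither site had a read in set 2 DKO, which held for 36 of the 91 sites with at least 5 reads. Absence from that pool is thus not particular to these sites. Across all protein-coding genes the miR-31-5p ratio of that comparison was 0.696. Outside this site, Rab6a had 9, 14 and 32 reads in set 2. DKO over uninduced moved from 1.02 (0.475 to 2.12) to 2.26 (0.911 to 5.92). Induced over uninduced moved from 1.51 (0.864 to 2.72) to 2.62 (1.22 to 6.23). The site was picked from these same reads as the deepest of Rab6a, and it held more uninduced than DKO or induced reads. Leaving it out therefore raises both ratios, and nothing is read from the higher values.

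A separate group of deep sites carried a single one of the 7 miRNAs. In Rab10, chr12:3298937-3298995 had 19 reads, all of miR-3470a, and chr12:3294050-3294091 had 18, all of miR-3470b. Set 1 control supplied 13 and 14 of these reads. A further Rab10 site at chr12:3269248-3269354 had 17 reads, 13 of miR-7667-5p, and a Rab21 site at chr10:115303452-115303488 had 19, all of miR-709, with 10 from set 1 control. These sites lay 51509, 46622, 21820 and 13590 bases from the 3′ ends of their genes. One of the 7 miRNAs led 25 of the 91 deep sites, and 0 of these 25 lay within 3000 bases of a gene end, against 34 of the 84 deep sites on genes with a known strand.

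The deepest miR-200 sites were fewer in reads. That of Rab22a, at chr2:173701951-173702038, lay inside the deep Rab22a site and had 14 reads (2 in set 1 control, 3 uninduced, 9 induced), of miR-200b-3p (7), miR-200c-3p (6) and miR-429-3p (1), which have 1 seed. The same Rab22a stretch still had 8 reads of other miRNAs in set 2 DKO. That of Rab31, at chr17:65718013-65718067 and 66287 bases from the end, had 7 reads, all of miR-200c-3p (3 uninduced, 4 induced). That of Rab7, at chr6:87999671-87999722 and 565 bases from the end, had 7 reads (1 uninduced, 6 induced), 6 of them of miR-200c-3p. Of the 107 miR-200 sites, 81 had 1 read, so most are seen once at this depth.

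**Figure D4:**
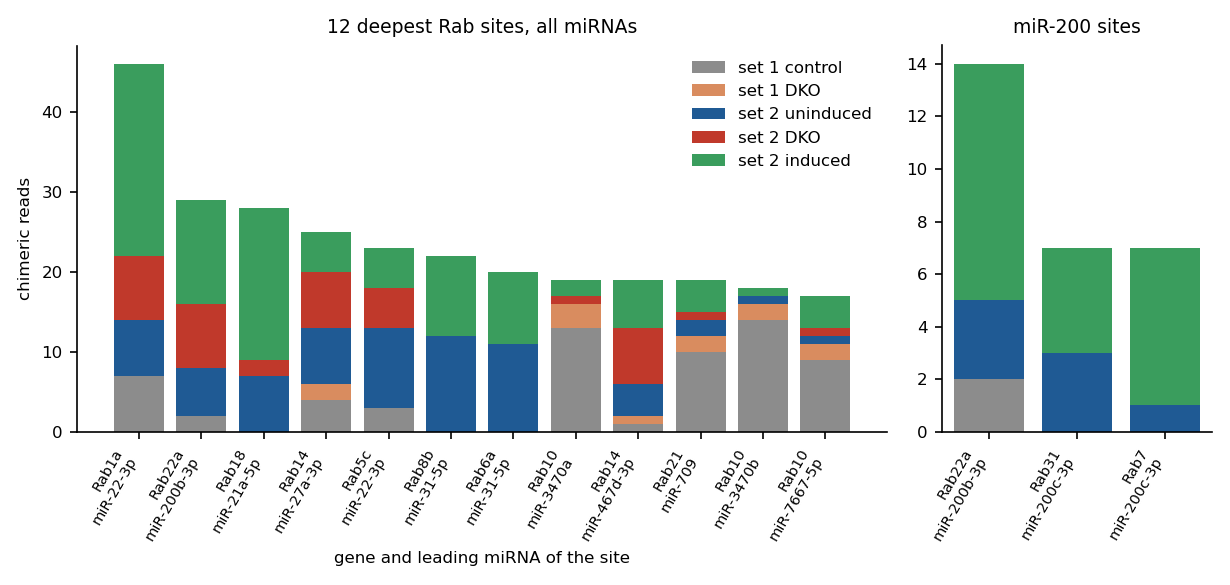
Chimeric reads at the 12 deepest Rab sites (left) and the 3 deepest miR-200 sites (right), stacked by pool, each named by its gene and leading miRNA; the vertical scales differ. The Rab8b and Rab6a sites of miR-31-5p hold only set 2 uninduced and induced reads, and the Rab10 sites of miR-3470a and miR-3470b hold mostly set 1 control reads.

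The position along the gene was taken from the RefSeq gene bounds, with the strand known for 48 of the 59 Rab genes; exons and untranslated regions were not assigned. On those genes 98.5% of 2539 Rab reads lay on the strand of the gene, against 97.9% of reads on all protein-coding genes with a strand. Within 3000 bases of the 3′ end lay 28.4% of the sense Rab reads and 27.2% of all. For the 7 miRNAs this was 1.32% (4 of 302 Rab reads), and for the other miRNAs 32.1% (706 of 2200). On all protein-coding genes the values were 2.64% and 29.1%. Genes differed widely: the share near the end was 67.1% for Rab5c, 51.1% for Rab1a, 48.3% for Rab14 and 47.1% for Rab6a, but 4.62% for Rab31, 3.74% for Rab40c and 1.41% for Rab20. A pair of short genes named after their values were seen, Rab33b at 89.8% and Rab1b at 78.3%, were higher still. A long gene has a smaller part of its length within 3000 bases of its end.

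**Figure D5:**
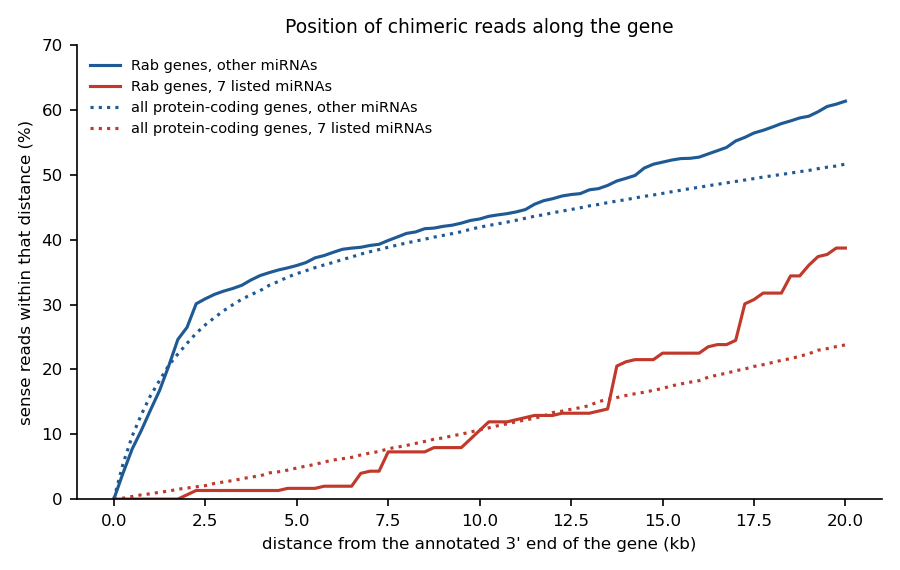
Percent of sense reads (vertical axis) within a given distance of the annotated 3′ end of the gene (horizontal axis, kb), for Rab genes (solid) and all protein-coding genes (dotted), with the 7 miRNAs in red and all others in blue. The blue Rab curve reaches 32.1% at 3000 bases and the red one 1.32%.

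The genes that act on Rab proteins were counted in the same way, from 4 lists. Dissociation inhibitors, escort and prenylation genes (6 of 7 with a read) had 328 reads, exchange factors (30 of 32) had 2631, GTPase-activating proteins (35 of 36) had 2980 and effectors (49 of 52) had 4303. In set 1 the DKO over control ratio was 0.739 (0.583 to 0.930) for exchange factors, 0.776 (0.616 to 0.971) for GTPase-activating proteins, 1.18 (0.993 to 1.40) for effectors and 1.07 (0.470 to 2.23) for the prenylation list. The part of the 7 miRNAs in these set 1 ratios was not tested. In set 2, DKO over uninduced gave 0.999 (0.883 to 1.13), 1.06 (0.952 to 1.19), 0.914 (0.833 to 1.00) and 1.06 (0.761 to 1.47) in the same order; the difference between the sets was not tested. For induction the ratios were 1.16 (1.05 to 1.28), 1.06 (0.968 to 1.16), 1.01 (0.932 to 1.08) and 1.02 (0.771 to 1.34). The number of members past 2-fold, higher and lower, was 1 and 2 of 10 exchange factors, 1 and 3 of 8 GTPase-activating proteins and 1 and 1 of 13 effectors in set 1, where 9.08% of all genes were higher and 16.6% lower. For set 2 DKO it was 1 and 0 of 3 dissociation inhibitor, escort and prenylation genes, 1 and 1 of 16 exchange factors, 1 and 1 of 17 GTPase-activating proteins and 1 and 3 of 23 effectors, against 8.97% and 11.7% of all genes. For induction it was 0 and 0 of 3, 0 and 0 of 17, 1 and 0 of 23, and 0 and 1 of 25 in the order of the lists, against 2.94% and 2.21%.

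The prenylation list was led by Gdi2, a dissociation inhibitor (108 reads), Chm, an escort protein for prenylation (97), and Rabggtb, a subunit of the enzyme that adds the prenyl tails (75). Rabggtb had 6 and 4 reads in set 1 and 15, 25 and 25 in set 2, which gave 2.42 (1.23 to 4.94) for set 2 DKO over uninduced. The exchange factors were led by Dennd2c (353 reads), Gapvd1 (297, of which 77 named miR-31-5p) and Dennd1a (287). The GTPase-activating proteins were led by Usp6nl (384), Tbc1d5 (364, 78 of them miR-31-5p) and Rabgap1l (322). Rabgap1l had 69 and 8 reads in set 1, a ratio of 0.398 (0.165 to 0.828), and 68, 64 and 113 in set 2, where DKO over uninduced gave 1.37 (0.957 to 1.95). Tbc1d5, which acts on Rab7, had 43 and 5 reads in set 1, a ratio of 0.399 (0.123 to 1.00), and 96, 84 and 136 in set 2. The effectors were led by Mical3, which binds Rab8 (761 reads, 142 of them miR-31-5p), Exoc6b, an exocyst subunit (585), and Eea1, the Rab5 effector that tethers early endosomes (310).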

How the data were processed

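The deposited unit is other than a count or a signal. An entry stands for 1 chimeric read and lists its target position and strand, its miRNA and a barcode of 4 bases. The tools were bedtools, cutadapt and Novoalign, with the mm10 genome, per the submitters' processing notes; versions, parameters and the handling of amplified copies are not given in the sources used here. No 2 entries of a pool share position, strand, miRNA and barcode. The 18 libraries are pooled in 5 files, 1 per group.

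Starts were shifted to count from 1, and the middle of each target was matched to RefSeq genes (GRCm38.p6); 16550 reads in several protein-coding genes were left out. Shares are reads over reads on single protein-coding genes, or over Rab reads for miRNAs. Intervals are exact Clopper-Pearson for shares and conditional exact for ratios (95%), and cover counting error only. Calls needed 20 reads and a 2-fold ratio; the script was tested on simulated counts. Named were the 15 Rab genes with the highest mean share and those called, the 15 miRNAs with the most Rab reads, the 5 miR-200 members, the 12 deepest sites, the 3 deepest miR-200 sites and 3 leading genes per partner list. Exceptions are marked, apart from the gene values of Rab18, Rab6a and Rab25, which are outside the 15 and were not called. The Rab genes, lists, miRNA group and rules were chosen with earlier results of these data known. Alternatives varied the strand, denominator, minimum, fold, what is counted, and which reads, miRNAs or gene entered. Python 3.11.15, pandas 2.3.3, numpy 2.4.6, scipy 1.17.1 and matplotlib 3.10.9 were used.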

Additional observations from a re-analysis of the deposited data

Results flagged for a closer look

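For DKO over control, genes with at least 20 reads in both sets were looked at, and only 9 Rab genes had them in set 1. None of these Rab genes had counting intervals on opposite sides of 1 in the 2 sets. In the partner lists, 2 genes did. In set 1, 10 exchange factors, 8 GTPase-activating proteins and 13 effectors had the 20 reads needed. The share of all protein-coding genes that meet this rule was not computed, so the 2 genes have no background. Dennd1b, an exchange factor, had 41 and 2 reads in set 1, a ratio of 0.167 (0.0196 to 0.644), and 17 and 32 in the uninduced and DKO pools of set 2, a ratio of 2.74 (1.47 to 5.25). Mical3, an effector, had a ratio of 1.53 (1.04 to 2.23) in set 1 and 0.791 (0.629 to 0.991) in set 2. The difference between the sets was not tested, since each group is 1 pool.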

How the results depend on the processing

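Each of the 3 comparisons was recomputed under alternatives fixed with the design, and under 2 chosen after seeing the data (without reads with marked names; the miR-200 share without the 7 miRNAs), 93 values in all. Only the miR-200 share ratios of set 2 had main intervals that left out 1, so only these could reverse, and none did. Of all values, 75 kept a count within 1.5 times or a ratio within its counting interval. The miR-200 ratios for DKO rest on 0 reads in the DKO pools and could not move. The Rab share ratio stayed between 0.913 and 1.11 for set 1 DKO, 0.964 and 1.04 for set 2 DKO and 0.958 and 0.985 for induction, and the miR-200 share ratio for induction between 1.46 and 1.52. The other 18 are counts of Rab genes past the threshold. With a minimum of 10 reads, set 1 DKO had 1 higher gene (Rab1b) and 4 lower (Rab2a, Rab30, Rab38, Rab6a), set 2 DKO 3 higher (Rab20, Rab24, Rab27b), and induction 2 higher (Rab20, Rab27b) and 1 lower (Rab35). With a minimum of 50 reads, the Rab8b and Rab20 calls were lost (0 and 0), since fewer genes were counted. With a 1.5-fold rule, 1 was lower in set 1 DKO (Rab1a), 3 higher (Rab2a, Rab30, Rab5c) and 4 lower (Rab11a, Rab18, Rab31, Rab8b) in set 2 DKO, and 2 higher (Rab20, Rab6a) and 2 lower (Rab33b, Rab38) on induction. Counting each position, strand and miRNA once gave 1 lower gene in set 1 DKO (Rab1a) and 0 higher on induction; dividing by all reads of the pool gave 1 lower in set 1 DKO (Rab1a). Without reads that match one of another pool of the same set, set 2 DKO had 2 lower (Rab11a, Rab8b) and induction 1 lower (Rab38). Without the 7 miRNAs, set 1 DKO had 1 higher (Rab7). The share of all genes past the threshold was computed only for the main rule, so these counts have no background and nothing is read from them. The cause of these moves was not tested. No paired analysis was possible because the files pool the libraries and carry no replicate number; leaving out single libraries was not run for the same reason. The set 1 comparison rests on only 136 Rab reads in DKO.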
